A study of Mus musculus with 384 samples.

Results

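Integrins are cell surface receptors built from an alpha and a beta subunit, and they tie a cell to the matrix around it or to another cell. The beta2 subunit Itgb2 pairs with Itgam, Itgax or Itgal on leukocytes, where these receptors serve adhesion, phagocytosis and migration across vessel walls. The beta1 subunit Itgb1 pairs with many alpha subunits, among them Itga1, Itga4, Itga8 and Itgav, and Itgav also pairs with Itgb5. In stromal cells, receptors with Itgav are known to bind latent TGF-beta in the matrix.

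The genes described are 10 integrin subunits, taken by name from both count tables: Itgam, Itgax, Itgal, Itgb2, Itga4, Itgb1, Itga8, Itgav, Itgb5 and Itga1. All 10 were found among the 40594 genes present in both tables, beside 16 other integrin subunits that were listed for comparison. Single cells of kidneys of mice aged 8 weeks were sorted into the wells of 96-well plates, from the gates PDGFRB+CD45+ (CD45+ in short) and PDGFRB+CD45- (CD45- in short). The PDGF receptor PDGFRB marks pericytes and fibroblasts, and CD45 marks leukocytes. Wells are named by a running number within each plate, called replicate, which pairs nothing between plates. Each gate had 1 plate in each of 2 batches, 384 wells in all; the labels give no strain, sex, genotype or animal, and UUO, part of the well names in both gates, is not explained in the labels. Each plate was therefore 1 sample, the only repeat of a comparison was the other batch, and no p-value was computed from wells.

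Wells held 5323 to 1246070 reads on genes. A well was kept with at least 10000 reads and 500 genes, which left 92 and 90 CD45+ wells and 93 and 93 CD45- wells in batches 1 and 2. Levels are in CPM, computed from reads added up over all kept wells of a plate and scaled to the same total, and shares of wells at 100 CPM or more were taken over the 76 and 78 CD45+ and 79 and 82 CD45- wells with at least 50000 reads, called deep wells below. All 8 leukocyte markers were higher in CD45+, with summed levels of 28608 and 24830 CPM in the CD45+ plates and 155 and 449 CPM in CD45-. At least 3 macrophage markers stood at 100 CPM or more in 71 of 76 and 76 of 78 deep CD45+ wells. T and NK cell markers reached 3 in 0 of 76 and 1 of 78 of them. At least 3 neutrophil markers did so in 5 of 76 and 2 of 78 deep CD45+ wells, and at least 3 endothelial markers in 5 and 8. The T and NK cell markers still summed to 118 and 535 CPM in CD45+, against 0.307 and 1.2 CPM in CD45-. Nkg7 made up 85.2 and 419 CPM of the CD45+ sums, and Trac had 1 and 3 reads. B cell markers summed to 138 and 129 CPM in CD45+ and to 0.102 and 3.31 CPM in CD45-. Collagen transcripts (Col1a1, Col1a2 and Col3a1) summed to 1000 CPM or more in 7 and 11 kept CD45+ wells. Ptprc, which encodes CD45, reached 100 CPM in 0 and 0 CD45- wells. Even so, at least 3 macrophage markers did in 2 of 79 and 4 of 82 deep CD45- wells, and at least 3 leukocyte markers in 1 and 2. Pdgfrb, which encodes the other sorted receptor, had only 3 and 163 reads in CD45+ (0.113 and 5.73 CPM), against 8640 and 6974 reads in CD45- (294 and 220 CPM), so the CD45+ plates held little transcript of a receptor they were sorted for. No wells were so alike that they could be the same library deposited more than once: the highest correlation of log levels was 0.629 within a plate and 0.538 between plates.

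By a 4-fold rule, Itgam, Itgax and Itgb2 were higher in CD45+ in both batches and none of the 10 genes was higher in CD45-. The rule, which is no test and is meant wherever a gene is called higher in the text that follows, asks for a ratio of CPM + 1 of at least 4-fold in the same direction in both batches. It called 4.33% of all 12882 genes tested higher in CD45+ and 12.9% higher in CD45-, so 3 of 10 members stood on the CD45+ side and 0 of 10 on the CD45- side. The other 7 members passed in neither direction, although Itgb1 reached 100 CPM in fewer CD45+ than CD45- wells. The median log2 ratio of the 10 members was 1.29 in batch 1 and -0.83 in batch 2, beside -0.39 and -0.56 for all genes tested. Itgal, Itga4, Itga8, Itgav and Itgb5 had ratios of opposite sign in the batches, as did 34.7% of all genes.

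A test over the 4 plates called 0 of the 10 members on either side at a Benjamini-Hochberg adjusted p under 0.05. This was edgeR's quasi-likelihood test on the summed reads with batch as a block, which leaves 1 residual degree of freedom, and over all 12882 genes it called 0.202% higher in CD45+ and 0.00776% higher in CD45-. The adjusted p by edgeR was 0.131 for Itgb2, 0.234 for Itgam, 0.303 for Itgax and 0.457 for Itgb1. At an unadjusted p under 0.05 there were 3 members on the CD45+ side (Itgb2, Itgam and Itgax) and 1 on the CD45- side (Itgb1). Without the block edgeR also called 0 members, with adjusted p of 0.0510, 0.0764, 0.114 and 0.36 for the same genes in the same order, beside 0.543% and 0.0854% of all genes. The labels do not say whether the plates came from separate animals, so these p-values measure only the spread between plates.

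**Figure D1:**
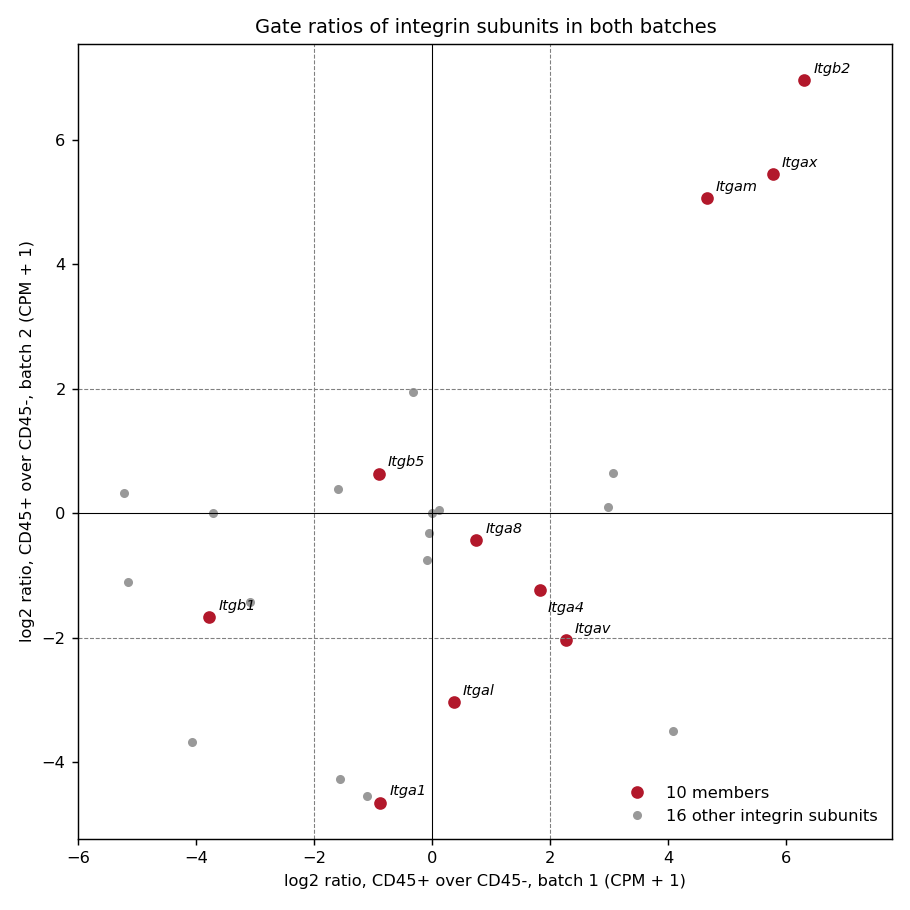
Log2 ratio of CPM + 1, CD45+ over CD45-, in batch 1 (x axis) and batch 2 (y axis) for the 10 members (red, named) and 16 other integrin subunits (grey); dashed lines mark 4-fold. Itgam, Itgax and Itgb2 lie past 4-fold in both batches, while Itgb5, Itga8, Itga4, Itgal and Itgav have opposite signs in the 2 batches.

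Itgam and Itgax are neighbours on the plus strand of mouse chromosome 7. On GRCm38 with the GENCODE M21 annotation, Itgam (ENSMUSG00000030786) spans 128062640 to 128118491 and Itgax (ENSMUSG00000030789) 128129547 to 128150657, with 11055 bases between them. Itgal (ENSMUSG00000030830) lies on the same chromosome, at 127296260 to 127335138, and Itgb2 (ENSMUSG00000000290) on chromosome 10, at 77530252 to 77565708. The authors' own build was not given in the sources used here. The start regions of the neighbours, 250 bases before to 50 after the start, are printed because both genes were higher in CD45+, and capitals mark the letters GAGGAA on either strand (TTCCTC on the other), the core bound by the myeloid transcription factor PU.1. Both sequences are from RefSeq on GRCm38.p6, plus strand, chr7:128062390-128062689 for Itgam and chr7:128129300-128129599 for Itgax.
Itgam: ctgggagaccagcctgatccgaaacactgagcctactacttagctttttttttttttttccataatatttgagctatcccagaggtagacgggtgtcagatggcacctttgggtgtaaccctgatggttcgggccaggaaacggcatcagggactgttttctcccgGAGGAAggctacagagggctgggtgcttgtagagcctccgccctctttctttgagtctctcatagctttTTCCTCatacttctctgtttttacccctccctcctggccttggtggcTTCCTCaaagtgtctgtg
Itgax: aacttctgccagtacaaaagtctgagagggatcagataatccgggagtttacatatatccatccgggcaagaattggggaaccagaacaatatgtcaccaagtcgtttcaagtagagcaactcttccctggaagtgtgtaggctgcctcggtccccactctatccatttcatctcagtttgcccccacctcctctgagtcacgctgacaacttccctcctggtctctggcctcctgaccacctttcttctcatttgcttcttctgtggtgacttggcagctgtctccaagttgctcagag

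The Itgam window held 3 matches, beginning at -84, -15 and 32 from the start, and the Itgax window held 0. Of the 8 members with a window in the table, 3 held the letters: Itgam, Itgav (at -218 and -7) and Itgb1 (at -9). Itgal and Itgb2 had no entry. The same letters were found in 28.3% of all 32851 windows of this length. The matches are a description of the letters, and binding was not measured.

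Itgam, the alpha subunit of the complement receptor known as CD11b, stood at 60.1 CPM in batch 1 and 87.2 CPM in batch 2 in CD45+, and at 1.43 and 1.64 CPM in CD45-. The log2 ratios were 4.65 and 5.06. Among deep wells, 8 of 76 (10.5%, exact 95% interval 4.66 to 19.7%) and 8 of 78 (10.3%, 4.53 to 19.2%) CD45+ wells reached 100 CPM. So did 0 of 79 and 0 of 82 CD45- wells, with upper bounds of 4.56% and 4.40%. The CD45+ wells past 100 CPM ranged from 104 to 1588 CPM in batch 1 and from 145 to 3334 CPM in batch 2, and the median deep CD45+ well held 3.03 and 5.98 CPM. A few wells thus carried most of the reads, and the highest well of each plate held 36.1% and 26.5% of them. These intervals cover counting error only, since reads without molecular identifiers are not independent molecules.

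Low Itgam counts were spread over both gates. At least 1 read was found in 61.8% and 76.9% of deep CD45+ wells and in 39.2% and 35.4% of deep CD45- wells, where the highest well had 10.3 and 10.4 CPM. Itgb2 reads, in contrast, were in 53.9% and 69.2% of deep CD45+ wells and in 0% and 2.44% of deep CD45- wells. The CD45+ plates held 0.769 and 0.643 reads of Itgam per read of Itgb2, and the CD45- plates held 42 reads against 0 and 52 against 3. The low counts of the CD45- plates were in similar shares of wells of either kind, 6 of 15 and 9 of 22 deep endothelial-marker wells and 20 of 49 and 17 of 41 collagen-rich wells (classes defined further on). In the GENCODE M21 annotation a further protein-coding gene, Gm49368, overlaps Itgam on the same strand and was not among the genes counted in both batches. Whether reads of the overlap entered the Itgam counts was not tested.

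Itgb2, the beta subunit shared by the leukocyte receptors, stood at 78.2 and 136 CPM in CD45+ and at 0 and 0.0945 CPM in CD45-. In batch 1 the level was at least 765-fold higher in CD45+ than the 3-read floor of the CD45- plate, and the log2 ratios of CPM + 1 were 6.31 and 6.96. Deep CD45+ wells at 100 CPM or more numbered 8 of 76 (10.5%, 4.66 to 19.7%) and 14 of 78 (17.9%, 10.2 to 28.3%), against 0 of 79 and 0 of 82 CD45- wells. Their levels ran from 115 to 3608 CPM in batch 1 and from 119 to 4500 CPM in batch 2. Without CD45+ well 74 of batch 1, the ratio of that batch was 5.60.

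Itgax, the alpha subunit known as CD11c and used as a marker of dendritic cells and some macrophages, stood at 53.6 and 47.1 CPM in CD45+ and at 0 and 0.0945 CPM in CD45-. In batch 1 it was at least 524-fold higher in CD45+ than the 3-read floor, and the log2 ratios were 5.77 and 5.46. Only 3 of 76 (3.95%) and 3 of 78 (3.85%) deep CD45+ wells reached 100 CPM, at 108, 620 and 1617 CPM in batch 1 and at 196, 477 and 2792 CPM in batch 2. A single well therefore set much of each level. Without replicate 49 of batch 1 the ratio was 4.5, and without replicate 65 of batch 2, which held 84.6% of the plate's Itgax reads, it was 2.94. Both stayed past 4-fold.

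Itgal, the alpha subunit of LFA-1 on lymphocytes and other leukocytes, was near 0 in CD45+, at 0.378 and 0.0703 CPM, and it stood at 0.0682 and 7.75 CPM in CD45-. No deep CD45+ well reached 100 CPM (0 of 76 and 0 of 78, upper bounds 4.74% and 4.62%). The log2 ratios were 0.37 and -3.03. In the CD45- plate of batch 2, 236 of 246 reads were in 1 well, replicate 55, at 1220 CPM, and without it the level was 0.317 CPM and the ratio -0.30. That well held 3 endothelial, 3 leukocyte and 3 macrophage markers at 100 CPM or more, with Cd74 at 18823 CPM, C1qa at 491 CPM and both Ptprc and Itgb2 at 0.

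Few CD45+ wells were high in both subunits of a beta2 receptor. Itgam and Itgb2 both reached 100 CPM in 0 CD45+ wells of batch 1, where each had 8, and in 1 of batch 2, where Itgam had 8 and Itgb2 had 14. Itgb2 thus reached 100 CPM in 0% and 12.5% of Itgam wells, and in 11.8% and 18.6% of the other deep wells. Itgax and Itgb2 coincided in 1 well of each batch, which was 33.3% and 33.3% of the Itgax wells, against Itgb2 in 9.59% and 17.3% of the others. At least 1 of the 4 genes Itgam, Itgax, Itgal and Itgb2 reached 100 CPM in 18 of 76 (23.7%) and 22 of 78 (28.2%) deep CD45+ wells, and in 0 of 79 and 1 of 82 CD45- wells. A read of any of them was found in 88.2% and 93.6% of deep CD45+ wells and in 40.5% and 42.7% of CD45- wells. The CD45- plates held 42 and 52 reads of Itgam and 2 and 246 reads of Itgal, of which 236 were in the single well described above. At this depth, a well below 100 CPM is not shown to lack the protein.

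Among CD45+ wells, macrophage transcripts were found in wells high in Itgam and in the others. C1qa, a complement gene of tissue macrophages, reached 100 CPM in 7 of 8 and 8 of 8 Itgam wells and in 58 of 68 and 66 of 70 other wells. Adgre1, the gene of the macrophage protein F4/80, did so in 0 of 8 and 4 of 8 Itgam wells and in 15 of 68 and 20 of 70 others, a smaller share of Itgam wells in batch 1 and a larger one in batch 2. Ccr2, a chemokine receptor gene of monocytes, did so in 1 of 8 and 2 of 8 Itgam wells and in 20 of 68 and 20 of 70 others. With 8 Itgam wells in each plate, these shares were not tested.

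**Figure D2:**
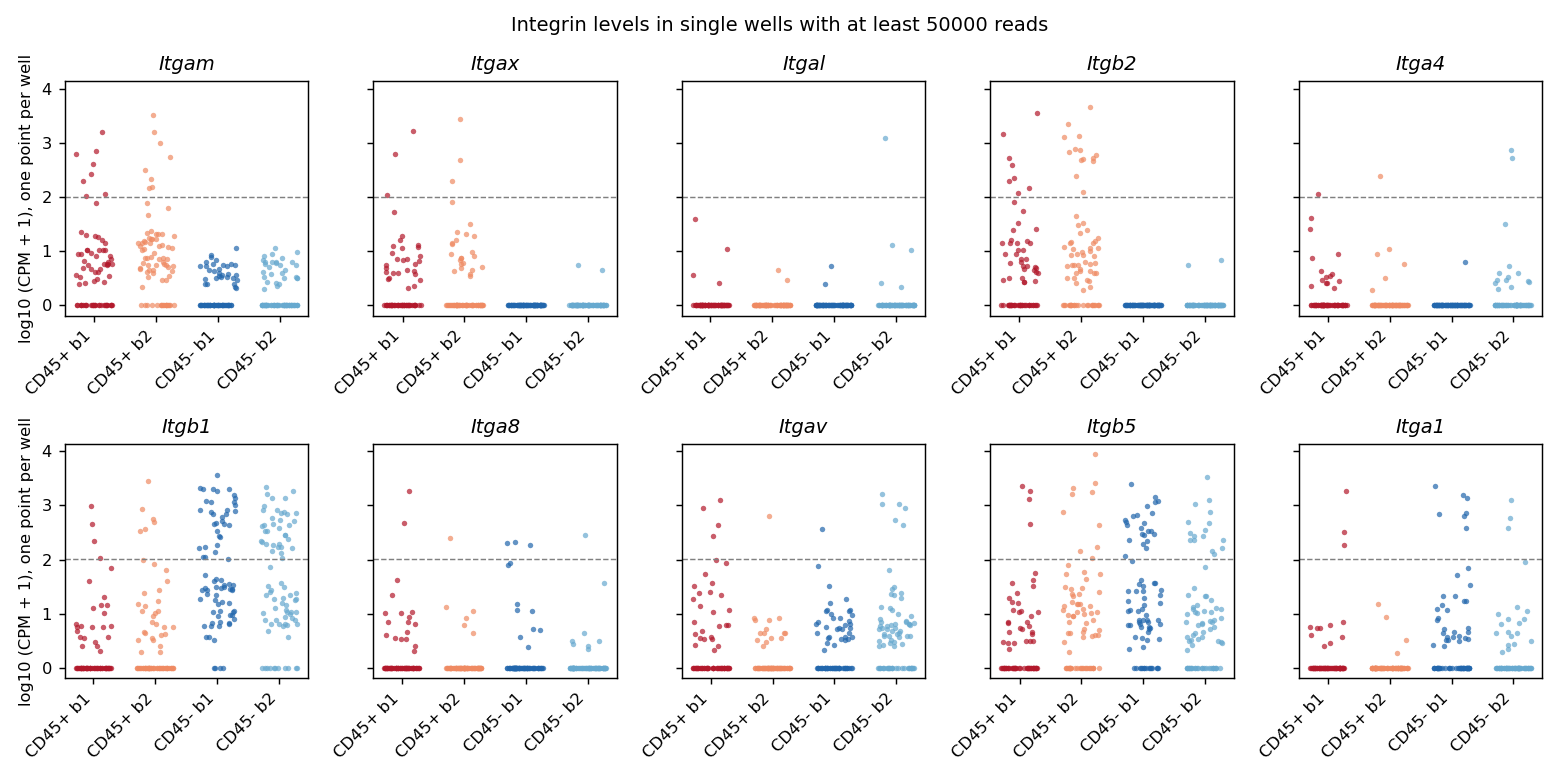
Log10 of CPM + 1 (y axis) of each member in every well with at least 50000 reads, by plate (x axis; b1 and b2 are the batches), 1 point per well; the dashed line marks 100 CPM. Itgam, Itgax and Itgb2 pass the line in CD45+ wells and in none of the CD45- wells, Itgb1 passes it in 4 and 6 CD45+ wells against 33 and 36 CD45- wells, and Itgal, Itga4 and Itga8 pass it in few wells of any plate.

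Itgb1 (ENSMUSG00000025809, chromosome 8), the common partner of the matrix-binding alpha subunits, stood at 23.8 and 88.4 CPM in CD45+ and at 340 and 282 CPM in CD45-. The log2 ratios were -3.78 and -1.66, so batch 2 missed the 4-fold limit. Among deep wells, 4 of 76 (5.26%, 1.45 to 12.9%) and 6 of 78 (7.69%, 2.88 to 16%) CD45+ wells reached 100 CPM. Of the CD45- wells, 33 of 79 (41.8%, 30.8 to 53.4%) and 36 of 82 (43.9%, 33 to 55.3%) did. The median deep well held 0 and 0 CPM in CD45+ and 32.7 and 24.8 CPM in CD45-. Replicate 22 of the CD45+ plate of batch 2 alone held 877 of that plate's 2515 reads, at 2791 CPM, and it carried 6 leukocyte and 5 macrophage markers. Without it, Itgb1 passed the 4-fold rule on the CD45- side (-2.26). Without CD45+ well 50 of batch 1 the ratio of batch 1 was -4.56.

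Itgb5 (ENSMUSG00000022817, chromosome 16), the beta subunit that pairs with Itgav, was found in both gates. It stood at 99.8 and 185 CPM in CD45+ and at 189 and 119 CPM in CD45-, with log2 ratios of -0.91 and 0.64. The share of deep wells at 100 CPM or more was nevertheless smaller in CD45+ in both batches, 4 of 76 (5.26%, 1.45 to 12.9%) and 10 of 78 (12.8%, 6.32 to 22.3%), against 23 of 79 (29.1%, 19.4 to 40.4%) and 16 of 82 (19.5%, 11.6 to 29.7%) in CD45-. The wells past 100 CPM had a median of 1588 and 1204 CPM in CD45+, against 437 and 290 CPM in CD45-. Of these 14 CD45+ wells, replicate 5 of batch 1 and replicates 18 and 50 of batch 2 also held at least 1000 CPM of collagen transcripts.

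Itga1 (ENSMUSG00000042284, chromosome 13), a collagen-binding alpha subunit, stood at 38.8 and 0.281 CPM in CD45+ and at 72.5 and 31.2 CPM in CD45-. The log2 ratios were -0.89 and -4.65. Replicate 67 of the CD45+ plate of batch 1 held 830 of its 1027 reads, and without that well Itga1 passed the rule on the CD45- side (-3.10). Without CD45- well 50 of batch 2 the ratio of that batch was -3.94. Deep wells at 100 CPM or more numbered 3 of 76 and 0 of 78 in CD45+, against 7 of 79 (8.86%) and 3 of 82 (3.66%) in CD45-. The gene Pelo overlaps Itga1 on the same strand and has its own counts, 2 and 1711 reads in the CD45+ plates and 1027 and 1777 reads in the CD45- plates. The protein-coding gene Gm49395 overlaps it on that strand too and was not among the genes counted in both batches. The split of reads between these overlapping genes is therefore uncertain.

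Itgav (ENSMUSG00000027087, chromosome 2), the alpha subunit of the receptors that bind fibronectin, vitronectin and latent TGF-beta, changed side between batches. It stood at 60.9 and 15 CPM in CD45+ and at 11.9 and 64.8 CPM in CD45-, with log2 ratios of 2.26 and -2.04. At 100 CPM or more were 4 of 76 and 1 of 78 deep CD45+ wells and 1 of 79 and 6 of 82 CD45- wells. Replicate 68 of the CD45+ plate of batch 2 held 94.6% of the Itgav reads of its plate, and without it that ratio was -5.17. Without CD45- well 12 of batch 1, the ratio of batch 1 was 3.55.

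Itga8 (ENSMUSG00000026768, chromosome 2), the alpha subunit that binds nephronectin and is known in mesangial and other kidney stromal cells, stood at 21 and 6.01 CPM in CD45+ and at 12.2 and 8.44 CPM in CD45-. The log2 ratios were 0.74 and -0.43. Few wells lay behind these levels: 2 of 76 and 1 of 78 deep CD45+ wells and 3 of 79 and 1 of 82 CD45- wells reached 100 CPM. Replicate 26 of the CD45+ plate of batch 1, at 1836 CPM and with Ptprc at 3089 CPM, held 84.2% of that plate's Itga8 reads. Without it the ratio was -1.60, and without CD45+ well 31 of batch 2 the ratio was -2.96. Without CD45- wells 83 of batch 1 and 23 of batch 2, the ratios were 1.58 and 1.61. The gene E030013I19Rik overlaps Itga8 on the opposite strand, with 1 and 0 reads in the CD45+ plates and 1 and 381 reads in the CD45- plates. The use of strand is not known, and whether reads of the overlap entered the Itga8 counts was not tested.

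Itga4 (ENSMUSG00000027009, chromosome 2), the alpha subunit of the VCAM1 receptor VLA-4, stood at 2.68 and 8.15 CPM in CD45+ and at 0.0341 and 20.5 CPM in CD45-. The log2 ratios were 1.83 and -1.23. A single deep CD45+ well of each batch reached 100 CPM, replicate 89 at 113 CPM and replicate 41 at 238 CPM, against 0 of 79 and 2 of 82 CD45- wells. These CD45- wells were replicate 24 (527 CPM), which held 7 endothelial markers, and replicate 45 (734 CPM), which was collagen-rich. Without CD45+ replicate 41 the batch 2 ratio was -4.19, and without CD45+ replicate 89 the batch 1 ratio was 0.98. Without CD45- replicates 24 and 45, left out in turn, the batch 2 ratio was -0.20 and -0.58.

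**Figure D3:**
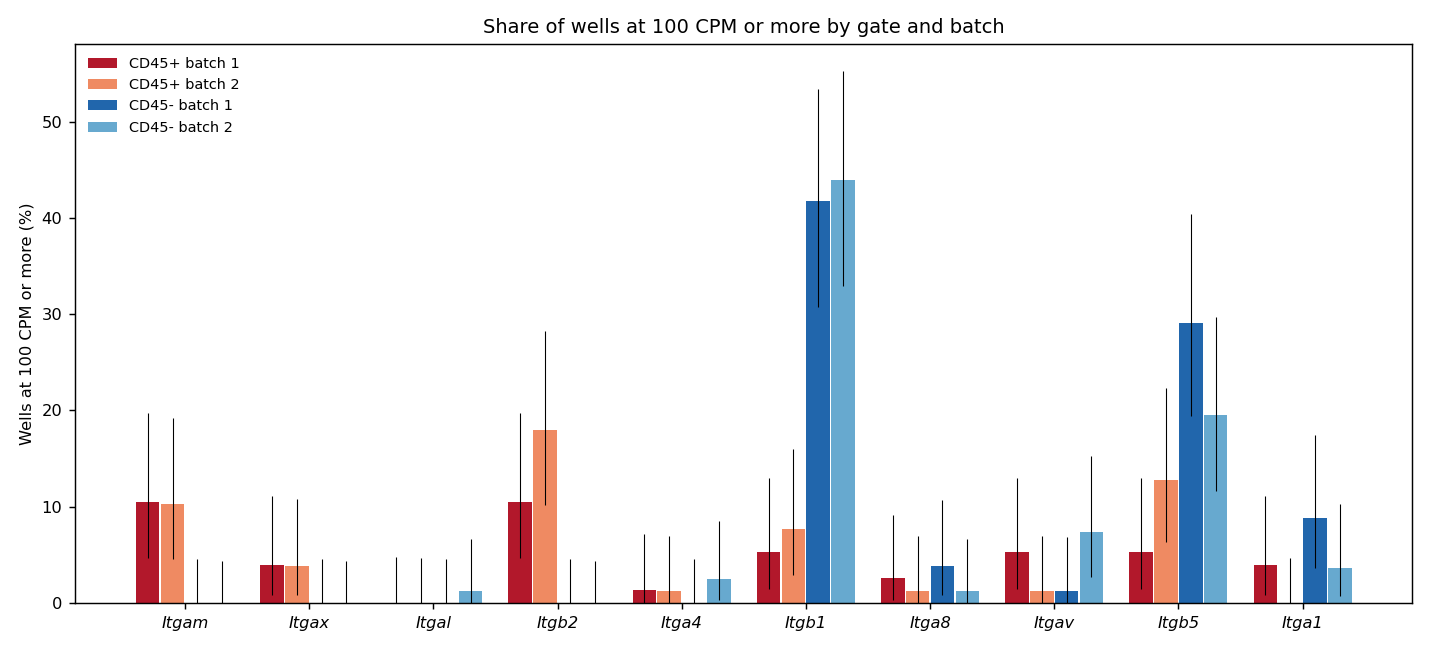
Share of wells with at least 50000 reads in which each member reached 100 CPM (y axis, percent), by gate and batch; bars are the 4 plates and lines exact 95% binomial intervals, which cover counting error only. Itgb1 has the highest CD45- bars, at 5.26% and 7.69% in CD45+ against 41.8% and 43.9% in CD45-, while the bars of Itgam, Itgax and Itgb2 stand in CD45+ alone.

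By this share of wells, 3 members were larger in CD45+ in both batches (Itgam, Itgax and Itgb2) and 3 were larger in CD45- (Itgb1, Itgb5 and Itga1), while 4 were mixed. Of all genes tested, 10.5% were larger in CD45+ and 45% in CD45- by the same rule. The CD45+ wells held fewer genes, with a median of 2724 and 2780 in deep wells, against 3978 and 3896 in CD45-. At least 1 of the 10 members reached 100 CPM in 30 of 76 (39.5%) and 35 of 78 (44.9%) deep CD45+ wells and in 45 of 79 (57%) and 46 of 82 (56.1%) CD45- wells.

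The CD45- plates held cells of more than 1 kind, and the members were compared between them. A CD45- well was taken as endothelial-marker when at least 3 of 10 endothelial markers reached 100 CPM and the 3 collagens summed to under 1000 CPM, and as collagen-rich when the collagens summed to at least 1000 CPM and fewer than 3 of these markers did. This gave 15 and 22 endothelial-marker and 55 and 44 collagen-rich wells. A further 16 and 13 wells met both criteria and 7 and 14 neither. The wells that met both had few reads, a median of 81020 and 18634, and 8 and 5 of them were deep. The median was 308142 and 241637 reads in endothelial-marker wells and 346950 and 410506 in collagen-rich wells. Between 500 and 2000 CPM of the collagens, near the limit, lay 21 and 25 of 93 wells, and 25 and 14 of 93 held 2 or 3 endothelial markers, near the other limit. None of the integrins was used to define the classes.

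By the 4-fold rule, Itgb5, Itga8 and Itgav were higher in collagen-rich wells in both batches and none of the members was higher in endothelial-marker wells. Of all 11572 genes tested, the 4-fold rule called 3.70% higher in endothelial-marker wells and 13.1% higher in collagen-rich wells. The quasi-likelihood test of edgeR on reads summed by class and plate, with batch as a block, called 0 of the 8 members with enough reads, beside 0.527% and 0.588% of all genes higher in endothelial-marker and in collagen-rich wells. Its adjusted p was 0.147 for Itgb5, 0.402 for Itga8 and 0.459 for Itgav, and at an unadjusted p under 0.05 there were 0 members on the endothelial-marker side and 2, Itgb5 and Itga8, on the collagen-rich side. Without the block edgeR called 0 members too, beside 0.259% and 0.32% of all genes, with an adjusted p of 0.103 for Itgb5. Of the 10 members, 5 (Itgb1, Itga8, Itgav, Itgb5 and Itga1) had the smaller share of wells at 100 CPM in endothelial-marker wells in both batches, as did 29.2% of all genes tested, and the other 5 had equal shares or shares that differed in direction. Hemoglobin transcripts moved along with the classes, at a summed 42983 and 3479 CPM in endothelial-marker wells and 6530 and 2344 CPM in collagen-rich wells. They also differed between the gates, at a summed 23.1 and 20.9 CPM in CD45+ and 13891 and 2918 CPM in CD45-. Their part in the class and gate results was not tested.

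For Itgb5 the classes lay far apart. It stood at 2.12 and 8.52 CPM in endothelial-marker wells and at 255 and 181 CPM in collagen-rich wells, with log2 ratios of -6.36 and -4.26. At 100 CPM or more were 0 of 15 and 0 of 22 deep endothelial-marker wells (upper bounds 21.8% and 15.4%), against 22 of 49 (44.9%, 30.7 to 59.8%) and 14 of 41 (34.1%, 20.1 to 50.6%) collagen-rich wells. The highest endothelial-marker wells held 14.8 and 72.6 CPM. Without the higher of these, replicate 60 of batch 2, the batch 2 ratio was -5.00.

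Itgb1 was found in both classes. It stood at 276 and 150 CPM in endothelial-marker wells and at 378 and 342 CPM in collagen-rich wells, with log2 ratios of -0.45 and -1.18. The direction did not hold at another class limit: with 300 CPM of the collagens in place of 1000 CPM, the mean of the log2 ratios was 0.05, against -0.82. Wells at 100 CPM or more numbered 4 of 15 (26.7%, 7.79 to 55.1%) and 5 of 22 (22.7%, 7.82 to 45.4%), against 26 of 49 (53.1%, 38.3 to 67.5%) and 26 of 41 (63.4%, 46.9 to 77.9%). The median deep endothelial-marker well held 10.3 and 14.9 CPM, and the median collagen-rich well 110 and 194 CPM.

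Itga8 stood at 0.192 and 0 CPM in endothelial-marker wells and at 17.8 and 13.7 CPM in collagen-rich wells, with log2 ratios of -3.98 and -3.88. All 4 CD45- wells with at least 100 CPM of it, 3 in batch 1 and 1 in batch 2, were collagen-rich, and all 4 also held at least 100 CPM of its partner Itgb1. Without the 1 well of batch 2, replicate 23, the ratio was -1.63 and the call was lost, and without replicate 83 of batch 1 the ratio was -3.12. Itgav stood at 1.15 and 4.26 CPM in endothelial-marker wells and at 16.6 and 64.4 CPM in collagen-rich wells (log2 ratios -3.03 and -3.64). Its call was lost without collagen-rich replicate 12 of batch 1, at -1.57.

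Itga1 stood at 28.5 and 8.03 CPM in endothelial-marker wells and at 81.5 and 48.2 CPM in collagen-rich wells, with log2 ratios of -1.48 and -2.45. It missed the 4-fold limit through 1 endothelial-marker well of batch 1, replicate 29 at 648 CPM, without which the ratio was -4.23 and the rule was passed. Without collagen-rich replicate 58 of batch 1 it was -0.86. In batch 2 it was -4.35 without endothelial-marker replicate 20 and -1.67 without collagen-rich replicate 50. Of the leukocyte subunits, Itgax had at most 2 reads and Itgb2 had 0 in either class and batch. Itgal stood at 0 and 38.7 CPM in endothelial-marker wells and at 0.101 and 0.154 CPM in collagen-rich wells. Itga4 stood at 0 and 59 CPM and at 0 and 14.8 CPM, in the same order. In batch 2 the single wells given above held all endothelial-marker reads of Itgal and 99.2% of those of Itga4. They also held 88.5% of the collagen-rich reads of Itga4, while the 3 collagen-rich reads of Itgal were in 3 wells. Itgam stood at 1.93 and 1.80 CPM in endothelial-marker wells and at 1.26 and 1.90 CPM in collagen-rich wells. The ratios of Itgam and Itgal had opposite signs in the batches, as did 37.2% of all genes.

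**Figure D4:**
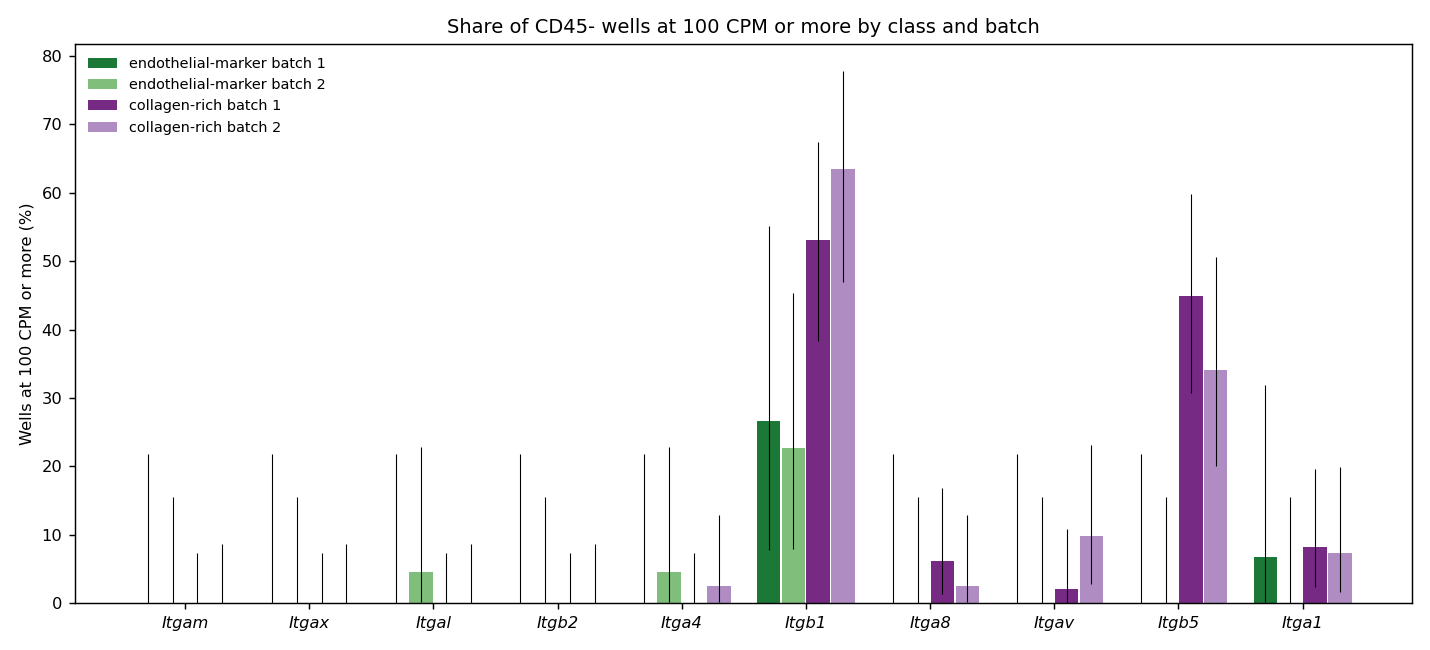
Share of CD45- wells with at least 50000 reads in which each member reached 100 CPM (y axis, percent), by class and batch; lines are exact 95% binomial intervals, which cover counting error only. Itgb5 reached 100 CPM in no endothelial-marker well and in 44.9% and 34.1% of collagen-rich wells, and Itgb1 in 26.7% and 22.7% against 53.1% and 63.4%.

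Itgb1 and Itgb5, which as beta subunits do not pair with each other, met in the same wells of the CD45- plates. Itgb5 reached 100 CPM in 15 of 33 (45.5%) and 11 of 36 (30.6%) Itgb1 wells, against 17.4% and 10.9% of the other deep wells. These shares, like those of the marker genes below, pool all classes of CD45- wells. Itgb5 reached 100 CPM in 0 of 15 and 0 of 22 endothelial-marker wells, and both genes did in a larger share of collagen-rich wells. Whether the genes also coincided within a class was not tested. All 23 and 16 wells high in Itgb5 held at least 100 CPM of Col1a1, as did 89.3% and 90.9% of the other wells. Acta2, the smooth muscle actin gene of myofibroblasts, did so in 22 of 23 and 14 of 16 Itgb5 wells and in 82.1% and 56.1% of the others. In Itgb1 wells the batches differed in direction, with Acta2 in 26 of 33 and 26 of 36 Itgb1 wells and in 91.3% and 54.3% of the others. Pdgfrb, the gene of the sorted receptor, reached 100 CPM in 15 of 33 and 9 of 36 Itgb1 wells and in 17.4% and 23.9% of the others. It did so in 9 of 23 and 3 of 16 Itgb5 wells and in 25% and 25.8% of the others, again with the batches differing in direction. Itgav and Itgb5, which form a receptor together, coincided in 1 of 1 and 2 of 6 Itgav wells, and Itgb5 reached 100 CPM in 28.2% and 18.4% of the others. Likeness was measured in the gate where a member had the larger mean CPM over the batches, without the 4-fold rule. For Itga8 (CD45+) and for Itgal, Itga4, Itgav and Itgb5 (CD45-), that side depended on a single well. The genes compared were those at 100 CPM or more in at least 20% of deep wells in both batches, 498 in CD45+ and 1021 in CD45-. Within these genes none reached a Pearson correlation of 0.4 with a member in both batches. For members at 0 in most deep wells, this shows neither likeness nor its absence. Itgal had reads in 2 and 5 deep CD45- wells, Itga4 in 1 and 14, and Itga8 in 18 and 6 deep CD45+ wells.

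The plates of the same gate also differed between batches. In CD45+, 1 of 10 members, Itga1, was at least 4-fold apart, with a log2 ratio of batch 2 over batch 1 of -4.96, beside 34.2% of all genes. In CD45-, 3 of 10 were, Itgal (3.03), Itga4 (4.38) and Itgav (2.35), beside 26.3% of all genes. Itgam, Itgax and Itgb2 were within 2-fold between the CD45+ plates, with log2 ratios of 0.53, -0.18 and 0.79. Itgb1 was within 2-fold between the CD45- plates (-0.27) but differed by 1.85 between the CD45+ plates.

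The 4-fold rule called 4.33% of all genes tested higher in CD45+ and 12.9% higher in CD45-. Of the 16 other integrin subunits, none was higher in CD45+ and 1, the laminin-binding alpha subunit Itga7, was higher in CD45-. It stood at 0 and 0.0351 CPM in CD45+ and at 15.8 and 12.3 CPM in CD45-, but leaving out CD45- replicate 47 of batch 1 (-0.82) or 35 of batch 2 (-1.32) ended the call. Between the classes, the rule called 3.7% of all genes tested higher in endothelial-marker wells and 13.1% higher in collagen-rich wells. Of this list, 0 were higher in endothelial-marker wells and 1, Itga9, a receptor subunit for tenascin and osteopontin, was higher in collagen-rich wells. Itga9 stood at 2.89 and 0.655 CPM in endothelial-marker wells and at 75.2 and 33.2 CPM in collagen-rich wells (-4.29 and -4.37). Without endothelial-marker replicate 32 of batch 1 its ratio was -4.99, and without collagen-rich replicate 83 of batch 2 it was -3.76. The list's median log2 ratios between gates were -0.72 and -0.16.

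Genes of cytoplasmic proteins that activate integrins or link them to actin were found on both sides. Of 20 listed, 4 were higher in CD45+ and 4 in CD45-, beside 4.33% and 12.9% of all genes tested. Fermt3, the kindlin of blood cells, stood at 113 and 44.1 CPM in CD45+ and at 1.4 and 5.35 CPM in CD45- (log2 ratios 5.57 and 2.83). Fermt2, the kindlin of adherent cells, stood at 46.2 and 21.7 CPM in CD45+ and at 460 and 400 CPM in CD45- (-3.29 and -4.14). Of the parvins, which link integrins to actin, Parvg was higher in CD45+ (5.17 and 3.60) and Parva in CD45- (-2.26 and -5.30). Apbb1ip, which recruits talin to integrins, had ratios of 4.05 and 2.46, and Cytip, a regulator of leukocyte adhesion, 5.25 and 6.93. Vcl and Ptk2, which encode vinculin and focal adhesion kinase, had ratios of -3.78 and -4.96, and of -5.13 and -4.94. None of these 8 calls was lost without any single well, and the smallest was Fermt3 without CD45+ replicate 27 of batch 2, at 2.00. Several values moved. Without 1 CD45+ well, the batch 1 ratio of Fermt2 was -4.09 (replicate 61), of Parva -5.17 and of Vcl -5.69 (replicate 91), of Parvg 4.14 (replicate 68), of Fermt3 4.88 (replicate 58) and of Cytip 4.55 (replicate 29). Without CD45+ replicate 5 the batch 1 ratio of Fermt2 was -3.92. In batch 2, without 1 CD45+ well, Fermt2 was at -5.09 (replicate 19) and -4.91 (replicate 45), Parva at -6.27 (replicate 45) and Parvg at 2.75 (replicate 59). Without 1 CD45- well of batch 1, Apbb1ip was at 5.00 (replicate 39) and 4.71 (replicate 86), Fermt3 at 6.60 (replicate 51) and Ptk2 at -4.37 (replicate 95). In batch 2 Apbb1ip was at 3.56 (replicate 7) and 3.15 (replicate 44), Fermt3 at 3.45 (replicate 70) and Vcl at -4.24 (replicate 7). The list's median log2 ratios were 0.00 and 0.21.

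Between the classes, Fermt3 (2.72 and 2.61) and Parvb (4.35 and 5.54) were higher in endothelial-marker wells and Parva (-3.22 and -3.05) and Apbb1ip (-4.35 and -4.16) in collagen-rich wells. These were 2 and 2 of the 20, beside 3.7% and 13.1% of all genes tested. The calls of Fermt3 and Parvb rested on single wells. Without endothelial-marker replicate 51 of batch 1 the Fermt3 ratio was -0.27, and without replicates 70 and 46 of batch 2, left out in turn, it was 1.45 and 1.99. Parvb was at -0.46 without replicate 45 of batch 1 and at 0.59 without replicate 72 of batch 2. Without endothelial-marker replicate 22 of batch 1 and replicate 29 of batch 2, the Parva ratios were -5.46 and -5.52. Without 1 collagen-rich well, Apbb1ip was at -3.35 (replicate 39) and -3.67 (replicate 86) in batch 1 and at -3.00 (replicate 7) and -3.44 (replicate 44) in batch 2, and Fermt3 was at 3.93 in batch 2 (replicate 81).

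Of 16 integrin ligands, 1 was higher in CD45+ and 6 in CD45-, beside 4.33% and 12.9% of all genes tested. Icam1, a ligand of the beta2 receptors, stood at 40.5 and 15.4 CPM in CD45+ and at 0.239 and 0.976 CPM in CD45-, with ratios of 5.06 and 3.05. Leaving out CD45+ replicate 41 of batch 2 ended the call (-0.05), and without replicate 48 of batch 1 the ratio was 3.42. Fn1, which encodes fibronectin, stood at 107 and 41.6 CPM in CD45+ and at 556 and 634 CPM in CD45- (-2.36 and -3.90). Fbn1, which encodes fibrillin, had ratios of -7.35 and -5.09, Tnc, which encodes tenascin C, -2.25 and -7.50, and Postn, which encodes periostin, -2.01 and -7.89. Without CD45+ replicate 80 of batch 1 the Fn1 ratio was -4.73, and without replicate 82 the Tnc ratio was -5.86. In batch 2 the Fn1 ratio was -4.60 without CD45+ replicate 13 and -4.62 without replicate 18, and the Fbn1 ratio was -6.35 without replicate 18. The batch 1 ratio of Postn was at the limit: it was -3.48 without CD45+ replicate 5, and 63 single wells, left out in turn, ended its call, with ratios up to -1.77. The list's median log2 ratios were -2.31 and -1.46, beside -0.39 and -0.56 for all genes.

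Between the classes, 1 ligand was higher in endothelial-marker wells and 5 in collagen-rich wells, beside 3.7% and 13.1% of all genes tested. Icam2, a beta2 receptor ligand of vascular endothelium, stood at 774 and 1254 CPM in endothelial-marker wells and at 19 and 6.84 CPM in collagen-rich wells (5.28 and 7.32). Spp1, which encodes osteopontin, had ratios of -2.69 and -3.29, Fn1 -5.26 and -3.53, Fbn1 -5.51 and -5.71, and Postn -5.32 and -5.16. Without endothelial-marker replicate 24 of batch 2 the Fn1 ratio was -4.59, and without collagen-rich replicate 49 of batch 2 that of Spp1 was -2.60. Without collagen-rich replicate 68 of batch 1 the Icam2 ratio was 6.59.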

How the data were processed

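The authors deposited 1 table of unnormalized read counts per batch, with genes as lines and wells as columns. Per the labels' protocols, each well was reverse transcribed with a SMARTer kit and sequenced in pairs, and the submitters' processing notes list STAR, Subread and featureCounts 1.4.5; no source used here gives the build, annotation or use of strand. Repeated gene lines (598 of 41192 and 595 of 41228, identical in their counts) were dropped. Wells with at least 10000 reads and 500 genes were kept (368; 16 were left out). CPM of summed reads, exact Poisson and Clopper-Pearson 95% intervals, and log2 ratios of CPM plus a pseudocount of 1 were computed in Python 3.11.15 with scipy 1.17.1, and TMM factors with edgeR 4.0.16. Genes of at least 1 CPM on average were the background. The edgeR quasi-likelihood test on reads summed per plate, with and without batch as a block, was added after the data were seen, since the batch pairs the plates of the gates. The members, lists, classes and thresholds were chosen with earlier results of these data known. All 10 members are named, and up to 4 called genes per direction of each listed group. Wells that share markers were described, and leaving out wells for the listed groups was added, after the data were seen. No caller for wells with more than 1 cell was run.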

Additional observations from a re-analysis of the deposited data

Results flagged for a closer look

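For 5 members the log2 gate ratio (CD45+ over CD45-) had opposite signs in batches 1 and 2, where 34.7% of all genes tested had. They were Itgal (0.37 and -3.03), Itga4 (1.83 and -1.23), Itga8 (0.74 and -0.43), Itgav (2.26 and -2.04) and Itgb5 (-0.91 and 0.64). Between endothelial-marker and collagen-rich wells, Itgam (0.37 and -0.05) and Itgal (-0.14 and 5.1) had opposite signs, where 37.2% of all genes tested had. With 1 plate per gate and batch, none of these differences between batches was tested.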

How the results depend on the processing

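The count of members higher in CD45+ was 3 under each of these settings of the 4-fold rule: pseudocounts of 0.1 and 10 CPM, deep wells alone, all wells, TMM factors, wells weighted equally, no wells with genes of the other gate, and each well left out in turn. The count higher in CD45- was 0 under the same settings, except that leaving out single wells gave 0 to 1 (Itgb1 or Itga1). The count higher in collagen-rich wells, 3, was 1 with a pseudocount of 10 CPM, which shrinks the ratios of low genes, and 2 to 4 with single wells left out. With class limits of 2 or 5 endothelial markers or a collagen sum of 3000 CPM it was 3, and with 300 CPM it was 4, where the mean class ratio of Itgb1 was 0.05 against -0.82, of Itga4 -1.87 against 0.96 and of Itgb5 -6.88 against -5.31. By the quasi-likelihood test of edgeR on plate sums, all 4 counts were 0, both with the batch as a replicate block and without it. Of the values of single members, 176 moved by no more than the spread between batches and 34 by more. That spread is wide for members whose batches disagree, so the 176 does not show that their values are stable. The mean gate ratio of Itgal, for one, went from -1.33 to 0.03 with single wells left out and counted as within the spread. For members called by the rule, 0 of 27 gate and 0 of 36 class values changed sign. For those not called, 8 of 63 gate values did (Itgal, Itga4, Itga8, Itgav and Itgb5) and 7 of 84 class values (Itgax, Itgal, Itga4 and Itgb1). With single wells left out, the other integrin subunits higher in CD45- numbered 0 to 2 and the ligands 5 to 7. Values below 100 CPM in a well can rest on few reads, and a gene at 0 in a well is not shown to be absent.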
